A study of Mus musculus with 4 samples.

Results

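The mouse proteasome genes were taken as every gene of the deposited count table whose symbol is Psm, a letter from a to g and a number, with or without the ending ip, and that had at least 1 count. The table held 49 such genes among 51826 rows, and 24621 rows had any count. They comprise 8 alpha and 11 beta subunits of the 20S core, 6 ATPase and 11 other subunits of the 19S cap, 3 chaperones of cap assembly, 4 chaperones of core assembly, 4 other activators, the inhibitor Psmf1, and Psmc3ip, a meiotic recombination factor that shares only the symbol. RNA was sequenced from the quadriceps of 2 wild-type (WT) mice and 2 Mef2dα2 Eko mice, in which the muscle-specific α2 exon of the transcription factor gene Mef2d had been deleted with CRISPR-Cas9. All 4 were sedentary males of about 20 weeks on the C57BL6/J background, kept on standard chow, and the muscles were collected within the same hour. Both genotypes came from crosses of heterozygotes after backcrossing to that background, Eko mice lack the exon in every tissue, and the labels do not say from which founder line the sequenced animals came. The comparison asks which transcripts differ between the genotypes in resting muscle.

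The proteasome degrades proteins that carry ubiquitin chains. Its 20S core is a barrel of stacked alpha and beta rings with the proteolytic sites on the inner beta rings, and the 19S cap binds ubiquitin, removes it and unfolds the substrate with a ring of ATPases. In skeletal muscle it carries out much of the breakdown of myofibrillar proteins during wasting. Most subunit genes are known to rise together under the transcription factor NFE2L1 when proteasome activity is limiting, while interferon induces the alternative catalytic subunits of the immunoproteasome.

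Total expected counts lay between 72626757 and 85176059 per library, so that 3 counts correspond to 0.0348 to 0.0419 counts per 1000000 (CPM, scaled with TMM factors). Mef2d itself stood at 259 and 227 CPM in WT and 252 and 241 CPM in Eko, which checks nothing here because a count over the whole gene does not single out the deleted exon. The 8 markers of muscle fibres summed to 122723 and 124993 CPM in WT and 122414 and 127822 CPM in Eko, so the defining transcripts of the labelled tissue were abundant in every library. Since whole muscle was sequenced, fewer cells of a type and less RNA per cell cannot be told apart in any value below. The study calls the sequenced WT and Eko mice littermates, but neither it nor the labels say which of them share a litter, and the p-values measure the spread between these 4 mice.

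Of the 49 genes, 47 passed the filter on low counts. When all 16120 genes were tested with edgeR (quasi-likelihood F test, p-values adjusted by Benjamini-Hochberg), 1 of the 47 was lower in Eko at an adjusted p below 0.05 and 0 were higher, where 0.31% of all genes tested were lower and 0.105% higher. The gene was Psmd8, which encodes a lid subunit of the 19S cap. None of the other 46 passed even an unadjusted p of 0.05, a level at which 6.41% of all genes were lower and 5.15% higher, and DESeq2, edgeR's likelihood ratio test and limma-voom called 0 of them. Those tools called Psmd8 as well, against a background of 1.16% lower and 0.856% higher with DESeq2, 1.23% and 0.707% with the likelihood ratio test and 0.254% and 0.0993% with limma-voom. The median log2 fold change over the 47 was -0.01, as it was over all genes tested (-0.01). With an offset for GC content the median over the 47 was -0.05. Over 15636 genes the log2 fold change had a rank correlation of -0.21 with transcript GC content, and -0.003 with the offset. The median size of the change, regardless of sign, was 0.06 on the log2 scale over the proteasome genes, 0.14 over all genes tested and 0.09 over the 4111 genes whose mean CPM lay in the range of the core subunits, from 18.4 to 173 CPM. Both Eko libraries lay below both WT libraries for 11 of the 47 (23.4%, against 23.0% of all genes tested) and above them for 5 (10.6%, against 20.8%).

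**Figure D1:**
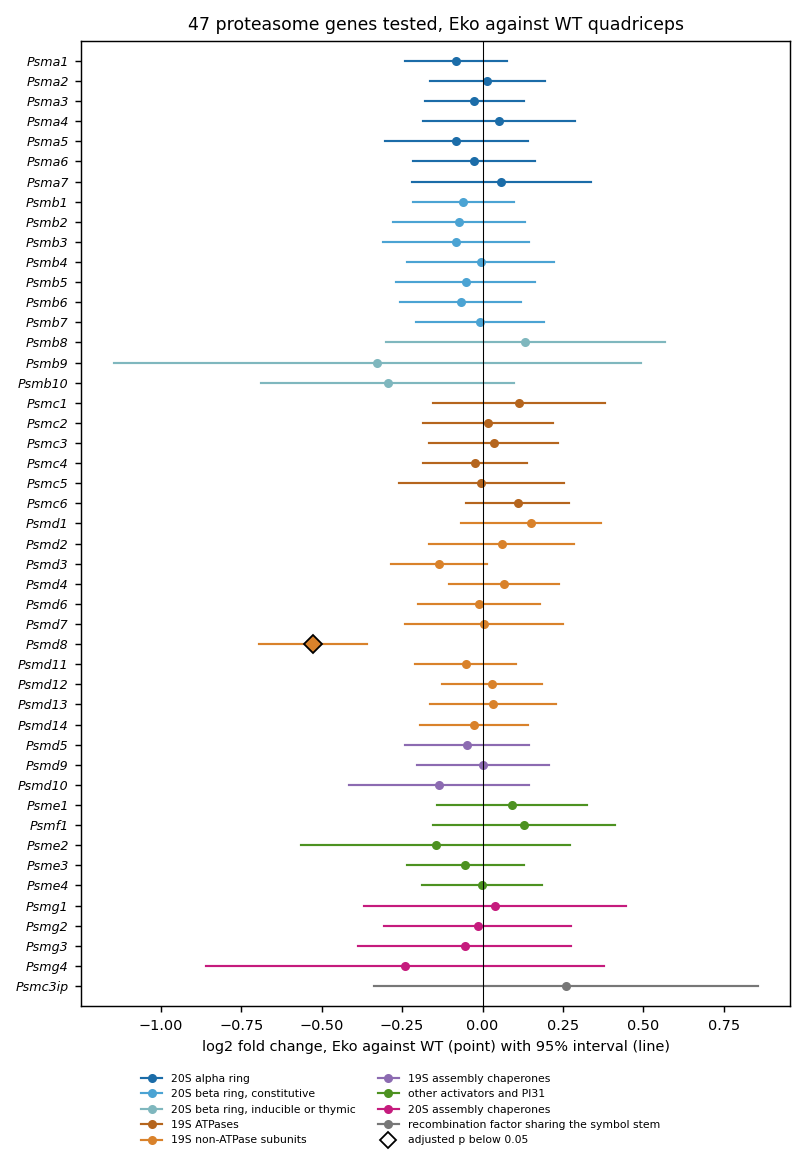
Log2 fold change of Eko against WT (x axis) for the 47 proteasome genes tested (y axis, coloured by structural class), with the 95% interval of each as a line. Psmd8, the diamond at -0.53, is the gene whose interval does not include 0, while the intervals of the other 46 do.

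Psmd8 had 12696 and 12808 counts in the WT libraries and 9412 and 8342 in the Eko libraries. These are 167 and 158 CPM in WT (163 ± 6.32, SD, n = 2) and 109 and 117 CPM in Eko (113 ± 5.28, SD, n = 2). Both Eko libraries were below both WT libraries, and the gap between the genotypes was several times the spread within either. The log2 fold change was -0.53 (SE 0.07, 95% interval -0.70 to -0.36, adjusted p = 0.0474), which leaves the Eko transcript at 69.3% of WT. Psmd8 is the mouse gene for Rpn12, which joins the lid late in its assembly and helps it dock on the base.

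The call lay close to the threshold. It was kept in 11 of 15 alternative settings and lost with RLE normalization (adjusted p = 0.0502), a minimum of 1 CPM in 2 libraries (0.0561), an offset for GC content (0.0592) and without WT replicate 1 (0.0518), while the log2 fold change stayed between -0.58 and -0.47 and the adjusted p ran from 4.2e-08 to 0.0592 over the 15. Psmd8 overlaps no other annotated gene, and no other transcript was found that matched it at 95% identity over 150 bases, so its counts were not shared with a copy in that search.

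Psmd8 lies on the minus strand of chromosome 7 at chr7:29174188-29180701 (GRCm38, ENSMUSG00000030591.17). The 250 bases before its start in RefSeq (GRCm38.p6, chr7:29180674-29180923, minus strand) are shown because this is the 1 gene of the set that fell, and the capitals mark a GC box (GGGCGG).

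Psmd8 upstream: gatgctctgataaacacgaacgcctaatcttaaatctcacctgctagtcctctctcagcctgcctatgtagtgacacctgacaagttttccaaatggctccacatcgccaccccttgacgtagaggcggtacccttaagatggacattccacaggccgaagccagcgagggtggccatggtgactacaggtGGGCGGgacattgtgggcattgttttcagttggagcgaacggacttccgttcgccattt

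The GC box begins at position -59 from the start. A core match for YY1 (GCCATNTT) begins at -7 and runs past the start, beyond the end of the printed stretch. The MEF2 element, searched by its consensus on both strands, had no match in this window.

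The other 10 non-ATPase subunits of the cap did not follow Psmd8. Together they summed to 776 and 856 CPM in WT and 807 and 852 CPM in Eko, so the genotypes overlapped. Psmd8 therefore amounted to 21.6% and 18.5% of the sum of its 10 partners in WT and to 13.5% and 13.7% in Eko, with no overlap. Their log2 fold changes lay between -0.13 and 0.15, and each interval included 0. No test of the difference between genes was made, but the 95% interval of 39 of the other 46 proteasome genes lay above the upper end of the Psmd8 interval (-0.36), and the 7 that reached it were scarcer genes with wider intervals (Psmb9, Psmb10, Psmd10, Psme2, Psmg1, Psmg3 and Psmg4).

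Psmd1, a large scaffold subunit of the cap base, had the highest value of the 10. It stood at 104 and 122 CPM in WT and 121 and 130 CPM in Eko. The Eko libraries were high and WT replicate 1 was low, and the groups overlapped (log2 fold change 0.15, SE 0.09, interval -0.07 to 0.37, adjusted p = 0.579). Psmd13, a lid subunit with the lowest level per length of the class, stood at 27.9 and 31.5 CPM in WT and 30.3 and 30.4 CPM in Eko, again overlapping (log2 fold change 0.03, SE 0.08).

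The 6 ATPases that form the unfolding ring summed to 348 and 399 CPM in WT and 377 and 394 CPM in Eko. Psmc3, the ATPase with the highest level per length, had 92.1 and 107 CPM in WT and 101 and 102 CPM in Eko (log2 fold change 0.03, SE 0.08). Psmc6, the lowest, had 47.7 and 47.8 CPM in WT and 50.2 and 52.9 CPM in Eko. Here both Eko libraries were above both WT libraries, and the difference was not past the threshold (log2 fold change 0.11, SE 0.07, interval -0.05 to 0.27, adjusted p = 0.585). Values over the class lay between -0.02 and 0.11 on the log2 scale, and 0 of the 6 were called.

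The alpha ring closes the entrance of the core and carries the docking sites of the cap. Its 8 genes summed to 254 and 282 CPM in WT and 261 and 272 CPM in Eko, and over the 7 tested the log2 fold change ran from -0.08 to 0.06. Psma4, with the highest level per length of the ring, had 46.8 and 55.8 CPM in WT and 51.1 and 55.2 CPM in Eko, so the Eko values fell inside the WT range (log2 fold change 0.05, SE 0.10).

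The 7 constitutive beta genes summed to 316 and 353 CPM in WT and 323 and 325 CPM in Eko. All 7 had a log2 fold change below 0, from -0.08 to -0.01, and 0 were called. Psmb6, the caspase-like site, stood at 58.0 and 65.3 CPM in WT and 59.7 and 57.9 CPM in Eko (log2 fold change -0.07, SE 0.08, interval -0.26 to 0.12). Psmb7, the trypsin-like site, stood at 74.9 and 86.4 CPM in WT and 79.7 and 80.8 CPM in Eko (log2 fold change -0.01, SE 0.08, interval -0.21 to 0.19). Psmb5, the chymotrypsin-like site that proteasome inhibitors bind, stood at 45.1 and 53.1 CPM in WT and 46.7 and 48.0 CPM in Eko (log2 fold change -0.05, SE 0.09, interval -0.27 to 0.16). For Psmb7 and Psmb5 the Eko pair lay between the WT libraries, and for Psmb6 the lowest library was an Eko library, level with WT replicate 1. Psmb1, a structural beta subunit with the lowest level per length of the class, had 45.4 and 46.8 CPM in WT and 44.5 and 44.0 CPM in Eko. Its groups did not overlap, at a log2 fold change of -0.06 (SE 0.07, adjusted p = 0.773).

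**Figure D2:**
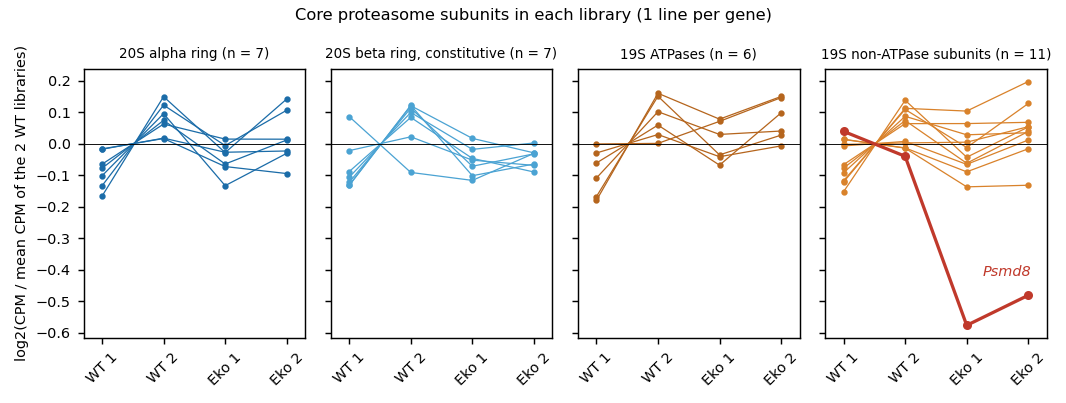
Log2 of the CPM of each core subunit over its mean in the 2 WT libraries (y axis) in each library (x axis), with 1 line per gene and 1 panel per class. Psmd8, in red, drops in both Eko libraries (109 and 117 CPM, against 167 and 158 CPM in WT), while the lines of the other genes stay near 0 and many start low in WT replicate 1.

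Much of the variation among the core subunits ran between the WT libraries. WT replicate 1 was the lowest of the 4 libraries for 24 of the 47 genes (51.1%), against 27.0% of all genes tested and 34.1% of the genes in the CPM range of the core subunits. Among the 31 tested genes of the alpha ring, the constitutive beta ring, the ATPases and the non-ATPase subunits it was the lowest for 19. Without Psmd8, the 48 proteasome genes summed to 2175 and 2386 CPM in WT and 2231 and 2352 CPM in Eko, so both Eko sums fell between the WT sums. The median log2 fold change of the tested genes was -0.07 without WT replicate 1 and 0.06 without WT replicate 2. WT replicate 1 also differed most from the other libraries over all genes, with a chi-square per degree of freedom of 119 to 215 in its pairs and 35.5 to 42.0 in the pairs without it.

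The inducible catalytic subunits Psmb9, Psmb10 and Psmb8 replace Psmb6, Psmb7 and Psmb5 in the immunoproteasome, which is common in immune cells and after interferon. They were scarce in this tissue. Summed per kb of transcript, the 3 amounted to 2.40% and 2.00% of the constitutive 3 in WT and to 2.18% and 1.79% in Eko, with overlapping groups. Psmb9 had 70 and 56 counts in WT and 68 and 35 in Eko, or 0.922 and 0.692 CPM against 0.789 and 0.489 CPM. The groups overlapped, and the interval was wide (log2 fold change -0.33, SE 0.35, interval -1.15 to 0.49). Psmb10 had 3.45 and 3.62 CPM in WT and 3.21 and 2.54 CPM in Eko, with both Eko libraries below both WT libraries, most clearly Eko replicate 2 (log2 fold change -0.29, SE 0.17, interval -0.69 to 0.10, adjusted p = 0.549). Psmb8 had 1.91 and 1.69 CPM in WT and 2.00 and 1.96 CPM in Eko, slightly higher in both Eko libraries (log2 fold change 0.13, SE 0.18, interval -0.30 to 0.57). At these counts a change of the size seen for Psmd8 lies inside the intervals of Psmb9 and Psmb10. Eko replicate 2 carried much of both values, since without it Psmb9 stood at -0.03 and Psmb10 at -0.14 on the log2 scale, and Psmb9 stood at -0.11 without WT replicate 1. Exons of Psmb9 overlap Tap1, and those of Psmb8 an antisense transcript, on the other strand, so their counts may hold reads of the partner if the counting did not use strand.

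**Figure D3:**
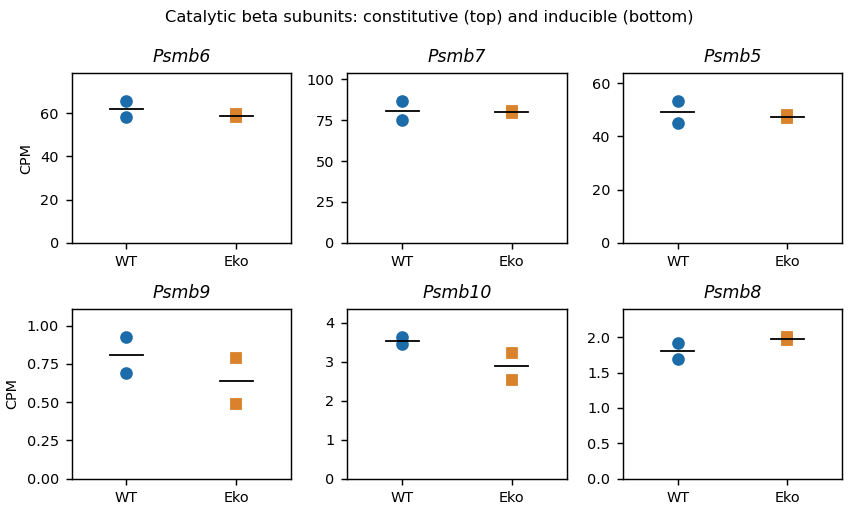
CPM (y axis, from 0, with its own range in each panel) of the 3 constitutive catalytic subunits in the upper row and their inducible counterparts below, with 1 point per library and a bar at the mean of each genotype. The constitutive genes lie between 45.1 and 86.4 CPM and the inducible genes between 0.489 and 3.62 CPM, and the genotypes stay apart for Psmb10 and Psmb8 with adjusted p of 0.549 and 0.824.

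Leukocytes express the inducible subunits strongly, and their markers also differed in level between the libraries. Of 15 leukocyte genes 14 were tested and 13 had a log2 fold change below 0, with a median of -0.57. Both Eko libraries lay below both WT libraries for 11 of the 14 (78.6%, against 23.0% of all genes tested). None passed an adjusted p of 0.05 in the quasi-likelihood test or limma-voom. At an unadjusted p below 0.05, 10 were lower (6.41% of all genes), and DESeq2 (1.16%) and the likelihood ratio test (1.23%) each called 5. Without the filter on low counts the quasi-likelihood test called 496 of 24621 genes lower. Among them were Csf1r, Lyz2, Cd74, H2-Aa, H2-Ab1, H2-Eb1, C1qa, C1qb and C1qc (adjusted p from 1.39e-09 to 0.0331). The list summed to 109.8 and 92.0 CPM in WT and 71.4 and 63.8 CPM in Eko, with none of its genes at 0 in all libraries and Cd79a, a B cell gene, under 0.1 CPM in each. Of the inducible subunits, Psmb9 and Psmb10 had a log2 fold change below 0, while that of Psmb8 was above 0 (0.13). The part of leukocytes in these values was not tested. Of 12 genes of antigen processing and the interferon response, 0 passed an adjusted p of 0.05 by edgeR's quasi-likelihood test, its likelihood ratio test, DESeq2 or limma-voom. Without the filter on low counts the quasi-likelihood test called B2m (log2 fold change -0.37, adjusted p = 0.00178). With the filter 2 of the 12 were lower at an unadjusted p below 0.05, where 6.41% of all genes were. The median log2 fold change of the 12 was -0.07. The lowest was Ifit1, an interferon-induced antiviral gene at 2.19 and 2.1 CPM in WT and 1.68 and 1.43 CPM in Eko (-0.46, SE 0.19).

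The assembly chaperones were expressed at a low level and did not pass the test. Psmd9, Psmd10 and Psmd5 guide the ATPases into the cap base. Psmd9 had 11.8 and 11.2 CPM in WT and 11.5 and 11.5 CPM in Eko (log2 fold change 0.00, SE 0.09, interval -0.20 to 0.21). Psmd5 had 13.8 and 13.4 CPM in WT and 13.0 and 13.3 CPM in Eko, with both Eko libraries just below WT (log2 fold change -0.05, SE 0.08, interval -0.24 to 0.15). The chaperones of core assembly, Psmg1 to Psmg4, summed to 15.6 and 16.4 CPM in WT and 15.2 and 16.2 CPM in Eko. Psmg2, a partner of Psmg1 in building the alpha ring, had 7.71 and 9.29 CPM in WT and 8.10 and 8.74 CPM in Eko (log2 fold change -0.01, SE 0.12). Psmg4, which works with Psmg3, had 80 and 76 counts in WT and 80 and 54 in Eko, or 1.05 and 0.94 CPM against 0.928 and 0.755 CPM. The Eko libraries were the lower pair, within a wide interval (log2 fold change -0.24, SE 0.26, interval -0.86 to 0.38).

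Of the other activators, Psme4 encodes the large single-chain activator PA200 and had the highest total CPM of any gene in the set. It stood at 355 and 369 CPM in WT and 341 and 382 CPM in Eko, so that the WT values lay between the Eko values (log2 fold change -0.00, SE 0.08, interval -0.19 to 0.19). Psmf1, the inhibitor PI31, had 9.77 and 11.7 CPM in WT and 11.0 and 12.4 CPM in Eko, overlapping (log2 fold change 0.13, SE 0.12, interval -0.15 to 0.41). Over Psme1 to Psme4 and Psmf1 the log2 fold change ran from -0.15 to 0.13. Psmc3ip, the recombination factor, had 0.778 and 0.791 CPM in WT and 0.928 and 0.951 CPM in Eko, from 59 to 80 counts. Both Eko libraries were higher, and the interval still included 0 (log2 fold change 0.26, SE 0.25, interval -0.34 to 0.86, adjusted p = 0.737).

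A pair of tissue-restricted subunits was at or under 3 counts in every library. Psma8, an alpha subunit of testis proteasomes, had 1 and 1 counts in WT and 0 and 0 in Eko. Psmb11, the catalytic subunit of the thymic cortex, had 0 and 0 counts in WT and 1 and 0 in Eko. Neither was tested, since so few counts (3 correspond to at most 0.0419 CPM) did not pass the filter. They cannot show whether the genotypes differ.

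Per kb of the principal annotated transcript, Psmd8 had the highest WT level of all 49 genes, at 106 ± 4.10 CPM per kb (SD, n = 2), followed by Psmb6 at 77.3 ± 6.51 and Psmb7 at 69.5 ± 7.0. In Eko, Psmd8 stood at 73.3 ± 3.43 CPM per kb, beside Psmb6 at 73.7 ± 1.56 and Psmb7 at 69.2 ± 0.685, so in WT Psmd8 stood clear of its neighbours in the order and in Eko it did not. With the length of all annotated exons in place of that transcript, an alternative chosen after seeing the data, Psmd8 ranked 2 of the 49 in WT, so the order depends on the length chosen.

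Within the classes the level per kb in WT covered a wide range. It ran from 26.2 ± 0.564 (Psmb1) to 77.3 (Psmb6) in the constitutive beta ring, from 21.4 ± 0.0192 (Psmc6) to 60.7 ± 6.26 (Psmc3) in the ATPases and from 14.9 ± 1.31 (Psmd13) to 106 in the non-ATPase subunits. The alpha ring reached 44.0 ± 5.52 with Psma4. The chaperones were lower, with 3.09 ± 0.0651 (Psmd5) to 4.43 ± 0.144 (Psmd9) for the cap and 1.8 ± 0.146 (Psmg4) to 8.02 ± 1.05 (Psmg2) for the core. Of the other activators and PI31, Psme4 stood at 55.8 ± 1.47 and Psmf1 at 2.81 ± 0.352, while the highest inducible beta gene, Psmb10, stood at 2.70 ± 0.0919 CPM per kb.

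**Figure D4:**
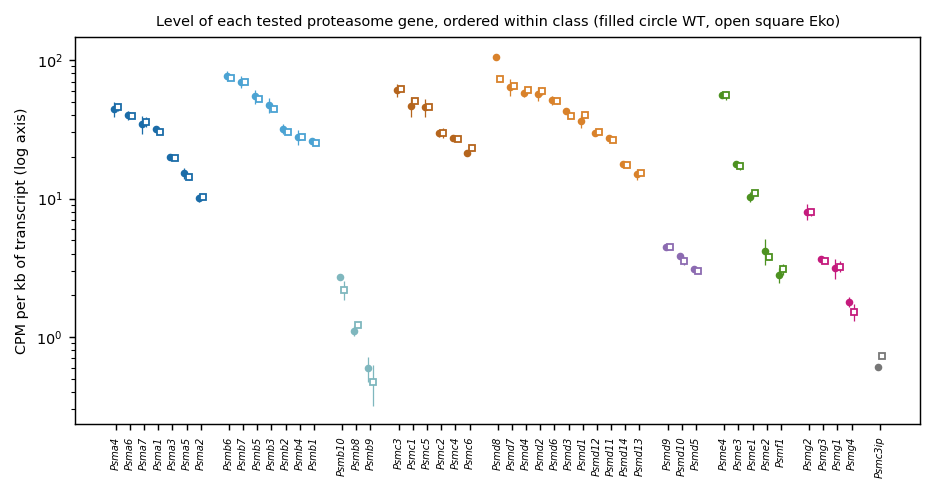
CPM per kb of principal transcript (y axis, log scale) of the 47 tested genes, ordered within each class by WT level, as mean with SD of 2 libraries (filled circles WT, open squares Eko). Psmd8 is at 106 in WT and 73.3 in Eko, and the circles and squares of the other genes nearly coincide except in the scarce inducible subunits, Psmg4 and Psmc3ip.

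For 9 of the genes the table also lists a near-identical copy that can share reads, mostly a processed pseudogene, though Psme2b is annotated as protein-coding. The most marked were Psma3, whose copy Gm13835 matches at 100% over 665 bases, and Psme2, whose copy Psme2b matches at 99.4% over 794 bases, both named after their values were seen. Gm13835 took 38.0% and 36.3% of the counts of the pair in WT and 38.2% and 36.8% in Eko. Psme2b took 53.0% and 54.2% in WT and 57.1% and 53.6% in Eko. The division was thus similar across libraries, and the level of either gene alone is uncertain. With the copies added, Psma3 stood at 90.9 and 90.7 CPM in WT and 90.7 and 88.9 CPM in Eko, and Psme2 at 7.31 and 10.2 CPM in WT and 8.22 and 8.19 CPM in Eko. The log2 fold change of Psma3 was -0.03 before and -0.02 after the addition, and that of Psme2 was -0.15 before and -0.09 after. None of the 9 was called either way. Besides Psmb8 and Psmb9, exons of Psma4, Psma5, Psmb7, Psmc3, Psmc3ip, Psmd1, Psmd3, Psmd9, Psmd13 and Psme1 overlap an annotated gene on the other strand. Since the strand setting of the counting is not given in the sources used here, their counts may include reads of that gene. Exons of Psmb5, Psmd1 and Psmg3 overlap a gene on the same strand (Mir686, Gm21972 and Gm26938), where strand does not separate the reads.

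Promoter windows from 250 bases before to 50 bases after the start (RefSeq, GRCm38.p6) were at hand for 41 of the 49 genes, as 44 windows. The antioxidant response element core, TGACNNNGC, through which NFE2L1 is known to act on these genes, was present on either strand in 13.6% of the 44 windows and in 12.4% of all 32851 windows. The GC box was in 54.5% against 35.7%, the site of nuclear respiratory factor 1 in 15.9% against 4.6%, and the YY1 core in 13.6% against 6.05%. The CCAAT box was in 34.1% against 37.4% and the TATA box (TATAAA) in 9.09% against 13.6%. The MEF2 element was in 0 of the 44 and in 3.19% of all windows. Matches of different motifs may overlap, and a match is a description of letters in a window. The response element core is shown in capitals with 10 bases on either side for the 3 genes in which it lay wholly upstream with those flanks, at chr14:54618024-54618052 for Psmb5 (minus strand), chr5:123228149-123228177 for Psmd9 and chr14:45329587-45329615 for Psmc6, where it reads on the opposite strand.

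Psmb5: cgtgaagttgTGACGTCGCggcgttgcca
Psmd9: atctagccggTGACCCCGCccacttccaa
Psmc6: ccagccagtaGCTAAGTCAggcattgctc

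None of these 3 genes changed past the threshold, with log2 fold changes of -0.05, 0.00 and 0.11.

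The genes next to Psmd8 on chromosome 7 were examined after its value was seen. Within 100 kb of either end, 10 other genes were tested. Both Eko libraries lay below both WT libraries for 8 of them, against 23.0% of all genes tested, and above them for 0, against 20.8%. The median log2 fold change of the 10 was -0.41. Some of the lowest values came from scarce genes whose intervals included 0. These were 2200002D01Rik (5 to 12 counts, -0.86, SE 0.61), Ggn (17 to 42 counts, -0.67, SE 0.39) and Rasgrp4 (36 to 67 counts, -0.56, SE 0.32). Within 250 kb both Eko libraries lay below both WT libraries for 10 of 16 genes and above them for 0, with a median of -0.15. Within 500 kb they lay below for 13 of 26 and above for 2 (median -0.10). Within 1000 kb they lay below for 22 of 60 and above for 9 (median -0.07). The quasi-likelihood test called 0 of the 10 nearest genes, as did limma-voom. At an unadjusted p below 0.05, 3 were lower, where 6.41% of all genes were. DESeq2 and the likelihood ratio test each called 1, Spred3, where they called 1.16% and 1.23% of all genes lower.

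The gene with the lowest value of the 10 was Spred3, which encodes an inhibitor of Ras signalling and starts 10.3 kb beyond the start of Psmd8 in the direction of its transcription. It stood at 5.28 and 4.82 CPM in WT and 2.68 and 2.46 CPM in Eko. The groups were well apart, and the log2 fold change was -0.97 (SE 0.14, interval -1.30 to -0.64, adjusted p = 0.0522). It was called in 7 of 15 alternatives, with a replicate block (0.0206), without WT replicate 2 (0.0307) and without Eko replicate 1 (0.0117) among them, and its adjusted p ran from 1.33e-06 to 0.0976. Fam98c, on the same side, stood at 9.53 and 8.52 CPM in WT and 6.76 and 7.41 CPM in Eko (log2 fold change -0.35, SE 0.11, adjusted p = 0.317). Ryr1, the calcium release channel of muscle and by far the most abundant of these neighbours, stood at 4072 and 4169 CPM in WT and 4141 and 4644 CPM in Eko (log2 fold change 0.09, SE 0.09). Some of these genes overlap a partner on the other strand, as Spred3 does with Ggn, but none of them overlaps Psmd8.

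**Figure D5:**
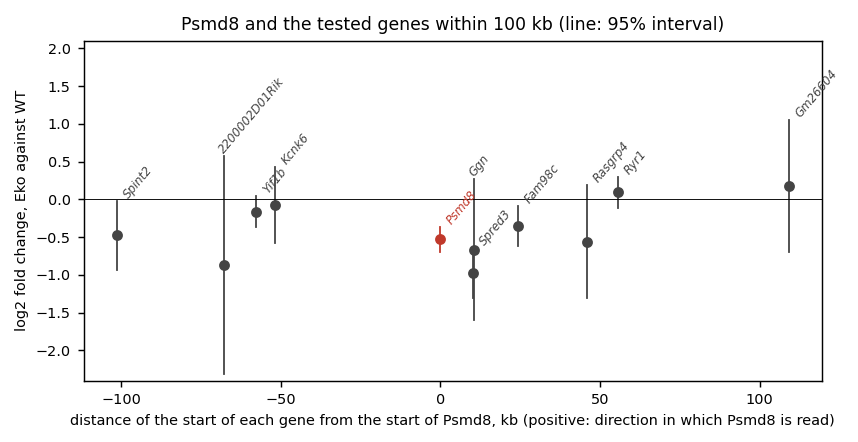
Log2 fold change of Eko against WT (y axis) for Psmd8 (red) and the 10 other tested genes within 100 kb, placed by the distance of their start from that of Psmd8 in kb (x axis), with the 95% interval as a line. Psmd8 at -0.53 and Spred3 at -0.97 sit beside each other with intervals below 0, and Ryr1 lies at 0.09.

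Genes that work with the proteasome but fall outside the symbol rule were taken as 4 lists, and in none did a gene pass an adjusted p of 0.05 by edgeR's quasi-likelihood test, its likelihood ratio test, DESeq2 or limma-voom. Of the proteasome-bound proteins, such as the ubiquitin receptor Adrm1 and the core maturation factor Pomp, 12 of 13 had a row and were tested. Of these 1 was lower at an unadjusted p below 0.05, where 6.41% of all genes were. The median log2 fold change was 0.01. The lowest was Ublcp1, a phosphatase of nuclear proteasomes, at 22.4 and 20.0 CPM in WT and 18.5 and 17.5 CPM in Eko (-0.23, SE 0.09, adjusted p = 0.383). The highest was Zfand5, a proteasome-binding protein known from muscle wasting, at 249.8 and 273 CPM in WT and 280.3 and 292 CPM in Eko (0.13, SE 0.07, adjusted p = 0.553).

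The 9 genes that control proteasome transcription include Nfe2l1, the protease Ddi2 and the deglycosylase Ngly1 that release it from the endoplasmic reticulum, and the small Maf partners. At an unadjusted p of 0.05, 0 passed, where 6.41% of all genes were lower and 5.15% higher. The median log2 fold change was 0.02. Maff was the lowest, at 1.74 and 1.99 CPM in WT and 1.24 and 1.5 CPM in Eko (-0.45, SE 0.21, adjusted p = 0.477). Ddi2 was the highest, at 83.3 and 73.9 CPM in WT and 85.7 and 97.3 CPM in Eko (0.22, SE 0.09, adjusted p = 0.432). In both cases the genotypes did not overlap.

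The shuttle proteins carry ubiquitinated substrates to the cap. For 4 of the 5 both Eko libraries were below both WT libraries, where 23.0% of all genes tested were, 1 was lower at an unadjusted p below 0.05, where 6.41% of all genes were, and the median log2 fold change was -0.12. Ubqln4 was the lowest and had 149 and 139 CPM in WT and 121 and 128 CPM in Eko (-0.21, SE 0.07, adjusted p = 0.345). Ubqln2 was the highest, with 26.3 and 25.7 CPM in WT and 24.4 and 31.0 CPM in Eko (0.09, SE 0.12), so its groups overlapped. Of the 6 ubiquitin and ubiquitin-activating genes 1 was lower at an unadjusted p below 0.05, against the same 6.41%, with a median of -0.07. The highest was Rps27a, a ubiquitin fused to a ribosomal protein, at 29.9 and 37.1 CPM in WT and 36.1 and 32.8 CPM in Eko (0.04, SE 0.11).

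Markers of the remaining cell types of muscle varied as follows beside the proteasome genes. The 5 endothelial genes summed to 147 and 133 CPM in WT and 126 and 145 CPM in Eko, the 5 fibroblast genes to 302 and 347 CPM in WT and 385 and 289 CPM in Eko, and the 6 adipocyte genes to 167 and 99.5 CPM in WT and 94.6 and 71.3 CPM in Eko. The adipocyte sum was thus highest in WT replicate 1, the library in which the core subunits tended to be lowest, and its part in those values was not tested. Leaving out that library gave a log2 fold change of -0.49 for Psmd8, against -0.53 with it. That fit keeps a difference in adipocyte sum, since WT replicate 2 (99.5 CPM) also lay above both Eko libraries. The part of adipocytes in the value of Psmd8 was not tested. Of the 6 adipocyte genes 5 had a log2 fold change below 0, with a median of -1.14. At an unadjusted p below 0.05, 3 of them were lower, where 6.41% of all genes were. Over the lists the log2 fold change ran from -2.18 (Cfd) to 0.21 (Lep) in adipocyte genes and from -0.77 (Cd68) to 0.07 (Cd3e) in leukocyte genes. It ran from -0.19 (Tie1) to 0.09 (Emcn) in endothelial genes, from -0.26 (Pdgfra) to 0.14 (Dcn) in fibroblast genes and from -0.44 (Myh1) to 0.14 (Pvalb) in muscle fibre genes. With the filter on low counts, 0 were called in any list by the quasi-likelihood test or limma-voom. Without it, the quasi-likelihood test called Adipoq, Plin1, Cidec, Cfd and Myh1 beside the leukocyte genes named above. Of the leukocyte genes, DESeq2 and the likelihood ratio test each called 5, as given above. Outside that list DESeq2 called 1 gene, Myh1, a fast myosin (adjusted p = 0.0132), where it called 1.16% of all genes lower. The likelihood ratio test called 1, Cfd, an adipocyte protease (0.000288), where it called 1.23% of all genes lower. Over 15 alternatives Myh1 was called in 3 (adjusted p from 4.63e-06 to 0.454) and Cfd in 7 (2.04e-93 to 0.254), and without WT replicate 1 the log2 fold change of Cfd was -1.23.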

How the data were processed

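Poly(A) RNA of quadriceps from 2 WT and 2 Mef2dα2 Eko mice was sequenced as paired reads from TruSeq Stranded libraries. The authors aligned the reads to mm10 with STAR 2.6.1a, per the submitters' processing notes, and deposited RSEM expected counts per gene, all whole numbers here. The strand setting of the counting is not given in the sources used here. Library totals were 72626757 to 85176059.

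Counts were normalised with TMM and tested with edgeR 4.0.16 (quasi-likelihood F test, default filter on low counts, 16120 genes, Benjamini-Hochberg, R 4.3.3). The 95% intervals use the SE of that test. An exact permutation test of 2 against 2 mice cannot go below p = 0.333, so none was made. DESeq2 1.42.0, limma 3.58.1, other scalings and filters, a GC offset, a replicate block, and leaving out each mouse were alternatives, and adding counts of near-identical copies was added after seeing the data. Gene models were GENCODE M21 (GRCm38), and near-identical copies were sought with blastn at 95% identity over at least 150 bases. The script was tested on simulated data. Members and gene lists were chosen with earlier results of these data known. Values in every library are given for genes with adjusted p below 0.05, the 3 lowest and 3 highest of the other tested genes, the catalytic beta subunits, genes not tested and the highest and lowest per kb in each class, and of the other lists for the lowest and highest gene (for markers, their log2 fold changes), apart from some genes that are not reported here. Genes near Psmd8, among them Spred3, were examined after its value was seen. Paaf1 is not analysed here.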

Additional observations from a re-analysis of the deposited data

How the results depend on the processing

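No member other than Psmd8 was called in any of the alternatives run. The number of members called lower in Eko was 0 with RLE normalization, with at least 1 CPM in 2 libraries and with the GC offset, 0 to 1 when each mouse was left out (0 without WT replicate 1), and 1 in each of the others. Psmd8 was then at -0.52 (RLE), -0.53 (1 CPM) and -0.52 (GC offset), and -0.58 to -0.47 without each mouse. The number called higher was 0 throughout. Over all genes the numbers lower and higher were 50 and 17, against 187 and 138 with DESeq2, 496 and 303 without the filter, 18 and 5 with at least 1 CPM in 2 libraries, 198 and 114 with the likelihood ratio test, 30 and 10 with the GC offset, and 74 to 172 lower and 25 to 127 higher without each mouse. The study calls the mice littermates without saying which share a litter, so whether equal replicate numbers mark a pair is not known, and they were not treated as pairs. The correlation of the within-genotype differences was 0.12 over 16120 genes, and with a replicate block the fit gave 136 lower and 50 higher, or 151 and 58 with the GC offset, with Psmd8 called in both. The causes of these shifts were not tested.

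None of the other named members was called in any alternative, and the sign of some turned. The sign turned for Psmb5 with the GC offset (0.00913, and 0.0148 with the replicate block as well), Psmd9 with upper-quartile normalization (-0.00239) and at least 1 CPM in 2 libraries (-0.00219), and Psme4 with DESeq2 (0.00632) and RLE (0.00635). When each mouse was left out, the range was -0.0420 to 0.00723 for Psma3, -0.0707 to 0.199 for Psma4, -0.164 to 0.0851 for Psmb5, -0.151 to 0.0352 for Psmb6, -0.106 to 0.113 for Psmb7, -0.0659 to 0.159 for Psmc3, -0.0546 to 0.138 for Psmd13, -0.0172 to 0.0351 for Psmd9, -0.347 to 0.105 for Psme2, -0.0866 to 0.0926 for Psme4 and -0.142 to 0.141 for Psmg2. Among genes of the other lists it was -0.0880 to 0.256 for Cd3e, -0.0583 to 0.321 for Dcn, -1.82 to 1.01 for Lep, -0.104 to 0.220 for Rps27a and -0.0905 to 0.269 for Ubqln2. Lep also turned to -0.284 with limma-voom, -0.211 with the block and -0.219 with the block and GC offset. Without changing sign, Psmb9 ranged from -0.705 to -0.0321, Psmb10 from -0.461 to -0.139, Psmg4 from -0.386 to -0.103, Psmd1 from 0.0397 to 0.287, Psmf1 from 0.00859 to 0.278 and Psmb8 from 0.0635 to 0.223 without each mouse. Psmb9, Psmc3ip and Psmg4 were not tested with at least 1 CPM in 2 libraries.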
